A study of Homo sapiens with 9 samples.

Results

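Glycolysis and the hypoxia response were followed through 36 genes in the RNA of KYSE180. This human line comes from a squamous cell carcinoma of the esophagus, and the study calls it KDM6A-deficient. The genes were picked as a set by symbol and matched to Ensembl identifiers. They are the glucose transporter SLC2A1 and the enzymes from hexokinase to pyruvate kinase, the genes that handle pyruvate and lactate, the oxygen-sensing genes, and further described targets of hypoxia. All 36 were among the 57905 genes of the count table, and all 36 passed the filter on low counts that left 13252 genes for testing. The rule that matched them used no measured value, but the members were chosen with earlier results of these data known.

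Each of 3 groups had 3 libraries: cells with the hairpin shEZH2#1, cells with the hairpin shEZH2#3, and control cells with a luciferase hairpin, shluc. Every cell was grown in the same serum-supplemented medium and had received 6 Gy of ionizing radiation, so the comparisons concern irradiated cells of 1 line. The titles speak of an EZH2 knockdown, whereas a genotype label of the hairpin libraries says knockout. Whether the lines were clones or pools is not stated, and neither is whether replicates were separate cultures, so a p-value speaks only of the variation among these libraries, and that variation may be technical. The comparisons ask how lowering EZH2, the subunit of Polycomb repressive complex 2 that methylates histone H3, relates to transcription after irradiation.

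As background, glycolysis turns glucose into pyruvate in the cytosol, and lactate dehydrogenase turns pyruvate into lactate, which leaves the cell through monocarboxylate transporters. HIF-1 is a transcription factor made of HIF1A and ARNT. With oxygen present, prolyl hydroxylases of the EGLN family mark HIF1A protein for destruction. When oxygen is scarce, HIF-1 accumulates and binds short DNA motifs near many glycolytic genes, so HIF1A activity is set largely at the protein level. Many squamous carcinomas take up much glucose and release lactate even with oxygen present.

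The targeted gene, EZH2 (ENSG00000106462), was measured first. It stood at 11.6, 11.4 and 7.28 CPM in the shEZH2#1 libraries, 9.67, 11.04 and 9.11 CPM in the shEZH2#3 libraries, and 18.4, 20.1 and 19.5 CPM in the shluc libraries, so no hairpin library overlapped the controls. CPM here means counts scaled to a common library total with TMM factors. On the log2 scale that is -0.94 ± 0.18 for shEZH2#1 (SE, adjusted p = 0.00163) and -0.96 ± 0.18 for shEZH2#3 (adjusted p = 0.000433). A second fit with an offset per library for GC content and transcript length, called the offset from here on, gave -0.73 for shEZH2#1 (adjusted p = 0.00399) and -0.56 for shEZH2#3 (adjusted p = 0.0133). Library totals lay between 14958011 and 21152006 estimated counts, and 1 count was worth 0.0399 to 0.0735 CPM. The libraries stood apart in base composition. The rank correlation of a gene's level, relative to its mean over libraries, with the GC content of its transcript was -0.25 to 0.25 in shEZH2#1, 0.37 to 0.64 in shEZH2#3, and -0.69 to -0.39 in shluc. Mitochondrially encoded genes took 1.47 to 1.73% of counts in shEZH2#1, 5.22 to 7.31% in shEZH2#3, and 3.19 to 4.12% in shluc. A pair of abundant genes with no symbol took 15.8 to 22.6%, 5.97 to 11.6%, and 6.96 to 9.28% of counts in shEZH2#1, shEZH2#3 and shluc libraries. Of 10 squamous epithelial markers only 5 passed the filter, KRT17 carried most of the summed level, and KRT5, KRT14, TP63 and SOX2 averaged under 1 CPM in each group. Their summed level was 1304 to 1582 CPM in shEZH2#1, 1117 to 1308 CPM in shEZH2#3, and 971 to 1315 CPM in shluc. Immune, fibroblast and endothelial markers summed to 73.6 to 79.4 CPM in shEZH2#1, 129 to 157 CPM in shEZH2#3, and 91.8 to 101 CPM in shluc. Of that list of 10, 9 were matched and 6 passed the filter. PTPRC and CD3E were at 0, whereas COL1A1, DCN, CDH5 and CD68 were expressed. Other markers of the list were low. COL3A1 averaged 0.62, 0.41 and 0.42 CPM in shEZH2#1, shEZH2#3 and shluc, VWF 0.56, 1.14 and 0.32 CPM, and LYZ at most 0.09 CPM. COL1A1 averaged 26.08 CPM in shEZH2#1, 67.49 CPM in shEZH2#3 and 46.78 CPM in shluc. CDH5 averaged 7.55, 29.96 and 17.41 CPM in the same order, and DCN 25.03, 18.52 and 11.3 CPM. On average COL1A1 and CDH5 were lowest in shEZH2#1 and highest in shEZH2#3, whereas DCN was lowest in shluc. The part of these differences in the results that follow was not tested. Values of the fit with the offset for GC content and transcript length are given beside the members' calls. The GC correlations of the 3 groups did not overlap, so the offset would also remove any hairpin effect that follows GC content. The offset therefore cannot tell such an effect from a difference between libraries.

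The members responded differently to the 2 hairpins. Of 36 members, 18 rose and 4 fell with shEZH2#3, whereas 2 rose and 7 fell with shEZH2#1. With shEZH2#3, the 18 that rose were SLC2A1, HK1, GPI, PFKL, PFKP, PFKFB4, ALDOA, ALDOC, TPI1, GAPDH, ENO1, ENO2, PKM, SLC16A3, EGLN3, CA9, NDRG1 and P4HA2, and the 4 that fell were LDHA, LDHB, HIF1A and P4HA1. With shEZH2#1, PFKFB4 and TPI1 rose, and HK1, HK2, PFKM, LDHA, HIF1A, ADM and NDRG1 fell. In the direct test of shEZH2#1 against shEZH2#3, 17 members were lower and only HIF1A was higher.

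These calls come from edgeR's quasi-likelihood test with Benjamini-Hochberg adjustment over all genes tested, at an adjusted p below 0.05. The background was 19.0% of all tested genes called with shEZH2#1 (11.2% higher and 7.89% lower), 44.2% with shEZH2#3 (24.4% higher and 19.8% lower), and 25.0% between the hairpins (9.46% higher and 15.5% lower in shEZH2#1). The median log2 fold change of the members was -0.15 with shEZH2#1, 0.36 with shEZH2#3 and -0.44 between the hairpins, where the medians of all tested genes were -0.07, -0.01 and 0.01. With the offset the members' median was -0.11 with shEZH2#1, 0.13 with shEZH2#3 and -0.32 between the hairpins. Both hairpin comparisons use the same shluc libraries, so their values are set side by side only. PFKFB4 and TPI1 were called higher and LDHA and HIF1A lower with each hairpin, against 11.3% of all tested genes called in both with the same sign (7.99% higher and 3.26% lower). HK1 and NDRG1 were called lower with shEZH2#1 and higher with shEZH2#3. In bulk RNA, fewer cells of a type and less RNA per cell cannot be told apart.

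**Figure D1:**
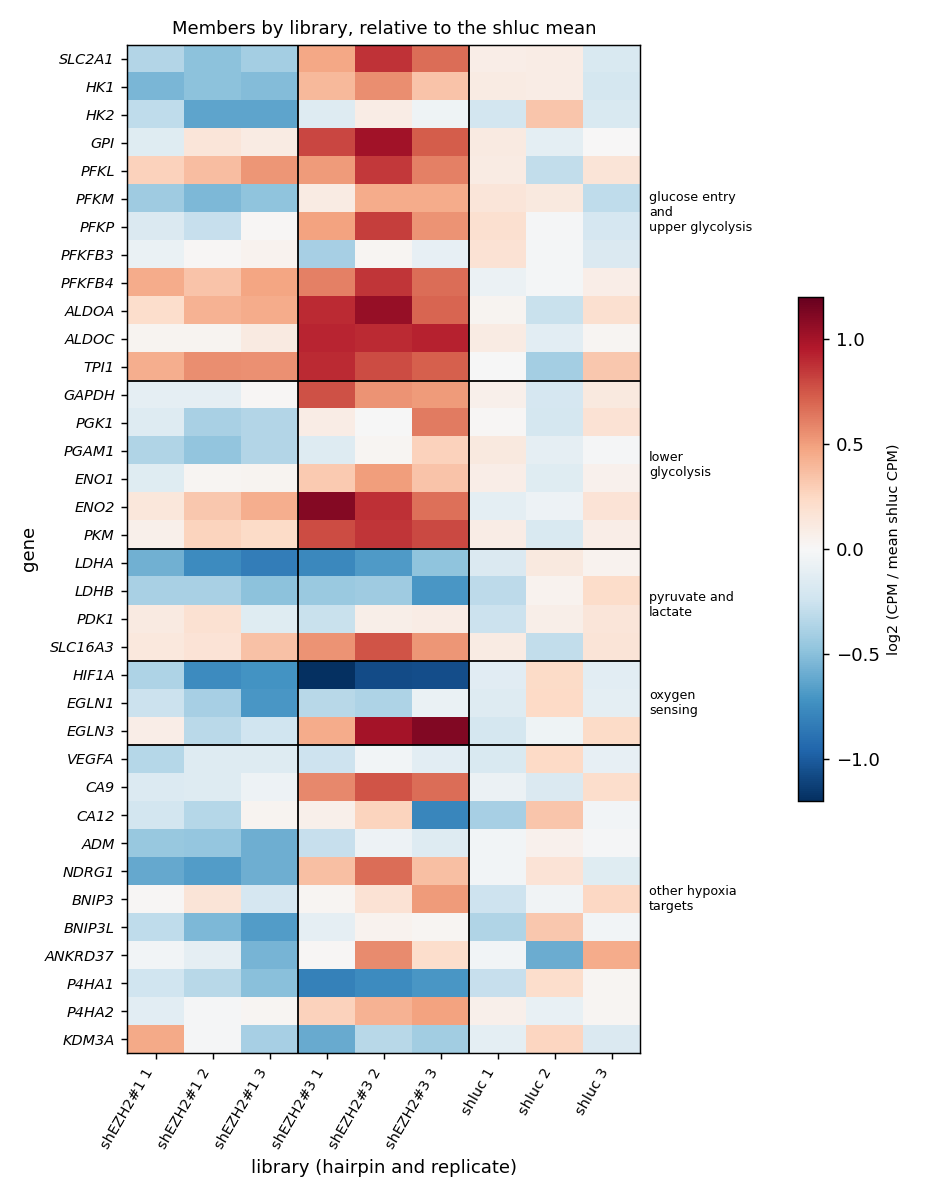
Level of each of the 36 members (down the page, by role) in each of the 9 libraries (across), as log2 of TMM-scaled CPM over the mean CPM of the 3 shluc libraries, red above and blue below. SLC2A1, HK1 and NDRG1 are blue in the shEZH2#1 columns and red in the shEZH2#3 columns, LDHA and HIF1A are blue in both, and PFKFB4 and TPI1 are red in both.

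Directions are relative to the TMM scale, under which the middle of all genes lay near 0. Scaled by library totals alone, a setting chosen after seeing the data, the median of all genes was -0.35 with shEZH2#1 and -0.47 with shEZH2#3, and all 18 members called with shEZH2#1 were lower, while 6 were higher and 11 lower with shEZH2#3. Of all 13252 tested genes, that scaling called 772 higher and 3016 lower with shEZH2#1, and 1129 higher and 5596 lower with shEZH2#3. Relative to the median of all genes, the members' median was -0.07 with shEZH2#1 and 0.38 with shEZH2#3 under either scaling. Between hairpins it was -0.45 with TMM and -0.46 with library totals. With the GC and length offset, 1 member was called higher and 10 lower with shEZH2#1 (8.22% and 9.89% of all genes), 14 higher and 3 lower with shEZH2#3 (12.7% and 11.5%), and 1 higher and 18 lower between the hairpins (13.2% and 15.1%).

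Hypoxia response elements carry the core ACGTG or GCGTG, and the members' promoters were read for those letters on both strands. RefSeq promoters of GRCh38.p14, from 250 bases before to 50 bases after a start, were at hand for 33 of 36 members. VEGFA, NDRG1 and BNIP3L had no entry. At least 1 window of 30 members held the core, and 41 of 61 member windows (67.2%) held it against 48.4% of all 35116 windows of 300 bases. Windows of the same gene were counted separately, and HK1 and PFKM had 7 each, of which 2 held the core. The share of all genes with the core in at least 1 window was not computed. The core holds the letters CG, and the base composition of the windows was not compared. The following stretches of 50 bases on the plus strand are shown because their genes take different places in the results. Each is the stretch with the most matches before the start in 1 chosen window of its gene, so its matches are not typical of the promoter. LDHA has 2 windows, both with the core, and SLC16A3 has 5, of which 3 hold it. LDHA was lower with both hairpins. GPI, CA9 and SLC16A3 were higher with shEZH2#3, and PGK1 was called only between the hairpins in the fit without the offset. Capitals mark each match on either strand, and CACGTG holds a match on both.
PGK1: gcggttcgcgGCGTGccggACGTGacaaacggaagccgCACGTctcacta
LDHA: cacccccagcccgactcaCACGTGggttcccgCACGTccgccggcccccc
CA9: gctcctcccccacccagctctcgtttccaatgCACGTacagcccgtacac
SLC16A3: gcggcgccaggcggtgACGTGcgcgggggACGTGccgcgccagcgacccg
GPI: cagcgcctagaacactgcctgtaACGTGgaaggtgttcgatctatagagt
They lie at chrX:78104027-78104076, chr11:18394458-18394507, chr9:35673878-35673927, chr17:82228958-82229007 and chr19:34364807-34364856. The PGK1 stretch, 221 to 172 bases before the start, holds 3 matches, and so does the LDHA stretch, 105 to 56 bases before it. SLC16A3 has 2 matches, and CA9 and GPI have 1 each, with that of CA9 within the last 50 bases before the start. The core is therefore present in promoters of members called in different directions, and a match is a description of letters only.

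Glucose entry and the first hexose steps separated the hairpins. SLC2A1 (ENSG00000117394, chr1:42925375-42959176), the glucose transporter GLUT1 of the plasma membrane, had 240.4, 218 and 232 CPM in the shEZH2#1 libraries, 425, 559 and 488 CPM in the shEZH2#3 libraries and 324, 327 and 269.7 CPM in the shluc libraries. The shEZH2#1 libraries all lay below the shluc range and the shEZH2#3 libraries all above it. The log2 difference from shluc was -0.42 ± 0.15 in shEZH2#1 (adjusted p = 0.0636, not past the threshold) and 0.68 ± 0.15 in shEZH2#3 (adjusted p = 0.00191). The hairpins differed by -1.09 ± 0.15 (adjusted p = 4.52e-05). With the offset for GC and length, the log2 fold changes were -0.42, 0.41 and -0.83 for shEZH2#1 against shluc, shEZH2#3 against shluc and shEZH2#1 against shEZH2#3, each with an adjusted p of 4.56e-05 to 0.00957. Such separation was common: shEZH2#1 and shluc libraries did not overlap for 37.2% of all tested genes (18.3% higher and 18.9% lower), and for 4 members higher and 11 lower. With shEZH2#3 it was 52.8% of genes (26.9% higher and 26.0% lower), and 18 members higher and 6 lower. Between the hairpins it was 42.9% (19.7% higher and 23.2% lower in shEZH2#1), and 2 members higher and 24 lower.

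HK1 and HK2, hexokinases that trap glucose as glucose 6-phosphate, were both called lower with shEZH2#1, and only HK1 was called with shEZH2#3. HK1 (ENSG00000156515, chr10:69269984-69401884) had 95.0, 98.5 and 96.7 CPM with shEZH2#1, 182, 205 and 176 CPM with shEZH2#3 and 148, 148 and 119.9 CPM with shluc, again with no overlap between the 3 groups. It fell with shEZH2#1 (-0.52 ± 0.14, adjusted p = 0.0169) and rose with shEZH2#3 (0.44 ± 0.14, adjusted p = 0.0198), and the hairpins differed by -0.96 ± 0.15 (adjusted p = 9.2e-05). All 3 calls held with the offset, at -0.42, 0.32 and -0.74, but the shEZH2#1 call was lost in 3 of 9 fits that each left out a library, including that without shluc replicate 1, and the shEZH2#3 call in 2, without shluc replicate 3 or shEZH2#3 replicate 2. HK2, an isozyme often raised in tumours, stood at 28.9, 22.9 and 22.9 CPM with shEZH2#1, 32.0, 37.8 and 34.3 CPM with shEZH2#3 and 30.5, 45.0 and 31.4 CPM with shluc. It was lower with shEZH2#1 than with shluc (-0.52 ± 0.17, adjusted p = 0.0405) and than with shEZH2#3 (-0.48 ± 0.17, adjusted p = 0.0486), and the offset ended both calls (-0.30 and -0.32, adjusted p = 0.148 and 0.0916). Of 9 fits that each left out a library, 5 kept the call against shluc and 3 kept that between hairpins. The first was lost without shluc replicate 2, shEZH2#1 replicate 2 or 3 or shEZH2#3 replicate 3, with a fold down to -0.33. The other was lost without shluc replicate 1, any shEZH2#1 replicate or shEZH2#3 replicate 2 or 3. The shEZH2#3 and shluc ranges of HK2 overlapped, with a fold change of -0.04 ± 0.17.

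GPI (ENSG00000105220, chr19:34359480-34402413), which turns glucose 6-phosphate into fructose 6-phosphate, had 757, 926 and 898 CPM with shEZH2#1, 1461, 1689 and 1389 CPM with shEZH2#3 and 903, 773 and 839.5 CPM with shluc. The shEZH2#3 libraries all exceeded the other 6, while shEZH2#1 and shluc overlapped. GPI rose with shEZH2#3 by 0.85 ± 0.15 on the log2 scale (adjusted p = 0.000324), and the offset left 0.72 (adjusted p = 0.000322). The difference between hairpins was -0.81 ± 0.15 (adjusted p = 0.000753), or -0.59 with the offset, and each call held with any 1 library left out.

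The phosphofructokinases, which commit fructose 6-phosphate to glycolysis, are a family of 3 isozymes here. PFKP, the platelet type, averaged 484 ± 49.4 CPM with shEZH2#1, 824 ± 108 CPM with shEZH2#3 and 534 ± 72.8 CPM with shluc (SD, n = 3 each). It rose with shEZH2#3 (0.63 ± 0.16, adjusted p = 0.00457), a call the offset ended (0.18, adjusted p = 0.278), and was lower in shEZH2#1 than in shEZH2#3 (-0.77 ± 0.16, adjusted p = 0.00173), which held (-0.50). PFKL, the liver type with the highest GC content of the members (63.5%), had 422 ± 37.5 CPM with shEZH2#1, 509 ± 63.2 CPM with shEZH2#3 and 321 ± 52.0 CPM with shluc. Its rise with shEZH2#3 of 0.66 ± 0.16 (adjusted p = 0.0032) came to 0.02 with the offset. PFKM, the muscle type, fell with shEZH2#1, at 81.2, 75.3 and 78.4 CPM there, 117, 149 and 149 CPM with shEZH2#3 and 121, 119 and 88.5 CPM with shluc. Its fold changes were -0.48 ± 0.16 with shEZH2#1 (adjusted p = 0.0372) and -0.82 ± 0.16 between hairpins (adjusted p = 0.000832), or -0.39 and -0.62 with the offset. With shEZH2#3 its fold was 0.34 ± 0.16, which missed the threshold (adjusted p = 0.0826). The shEZH2#1 call held in 4 of 9 fits without 1 library. It was lost without shluc replicate 1 or 2 and without any shEZH2#1 replicate.

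PFKFB3 and PFKFB4 make and remove fructose 2,6-bisphosphate, an activator of phosphofructokinase. PFKFB4 had 104, 96.8 and 106 CPM with shEZH2#1, 116, 139 and 121 CPM with shEZH2#3 and 72.9, 75.4 and 80.9 CPM with shluc, with both hairpins above the controls in every library. It rose with shEZH2#1 by 0.42 ± 0.14 (adjusted p = 0.0392) and with shEZH2#3 by 0.71 ± 0.14 (adjusted p = 0.000587), and by 0.31 and 0.32 with the offset. The shEZH2#1 call survived in 2 of 9 fits without 1 library, and the highest adjusted p was 0.147. PFKFB3 stood at 20.9, 22.5 and 22.8 CPM with shEZH2#1, 16.9, 22.5 and 20.7 CPM with shEZH2#3 and 25.1, 21.8 and 19.6 CPM with shluc, and passed no test without the offset.

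The aldolases and triose phosphate isomerase split the hexose and interconvert the resulting trioses. ALDOA, the main aldolase, had 6584, 7554 and 7738 CPM with shEZH2#1, 10530.5, 11705 and 9209 CPM with shEZH2#3 and 5803, 4716 and 6496 CPM with shluc. All shEZH2#3 libraries exceeded all others. It rose with shEZH2#3 by 0.89 ± 0.17 (adjusted p = 0.00046), which the offset brought to 0.27 (adjusted p = 0.0416), and was lower in shEZH2#1 than in shEZH2#3 by -0.52 ± 0.17 (adjusted p = 0.0273), or -0.33 with the offset. That last call was lost in 4 of 9 fits, without any shEZH2#1 replicate or without shEZH2#3 replicate 2, with an adjusted p of up to 0.121.

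ALDOC, a second aldolase best known from brain, had 128, 127 and 134 CPM with shEZH2#1, 234, 231 and 236 CPM with shEZH2#3 and 133, 114 and 127 CPM with shluc. The shEZH2#3 libraries lay close together and far above the rest, while shEZH2#1 and shluc overlapped. ALDOC rose with shEZH2#3 by 0.91 ± 0.14 (adjusted p = 7.75e-05), and by 0.50 with the offset (adjusted p = 0.000585). The hairpins differed by -0.85 ± 0.14 (adjusted p = 0.000178), or -0.64 with the offset. TPI1 had 2920.4, 3171 and 3141 CPM with shEZH2#1, 4000.4, 3697 and 3539 CPM with shEZH2#3 and 2152, 1619 and 2691 CPM with shluc. Both hairpins stood above all controls, by 0.51 ± 0.17 with shEZH2#1 (adjusted p = 0.0442) and by 0.80 ± 0.18 with shEZH2#3 (adjusted p = 0.00147). The shEZH2#1 call was lost with the offset (0.29, adjusted p = 0.0606) and in 7 of 9 fits without 1 library. That with shEZH2#3 held in all 9 and with the offset (0.37, adjusted p = 0.0151).

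**Figure D2:**
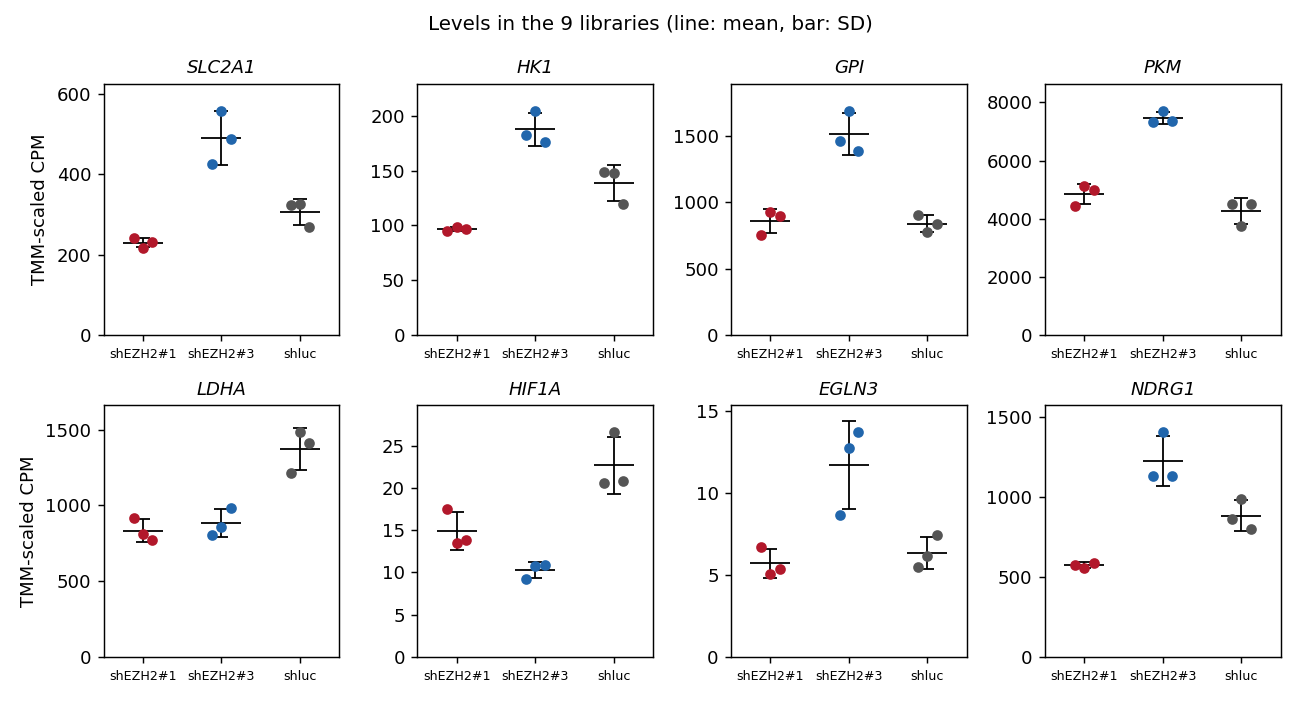
TMM-scaled CPM (linear axis from 0) of 8 members in each library, with shEZH2#1 left in red, shEZH2#3 in the middle in blue and shluc right in grey; points are libraries, lines are means and bars are SD (n = 3). The shEZH2#3 libraries of GPI and PKM lie above all others, those of SLC2A1, HK1 and NDRG1 lie above and the shEZH2#1 libraries below shluc, and LDHA and HIF1A are highest in shluc.

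In lower glycolysis, 4 of 6 members rose with shEZH2#3, and 5 of 6 were lower with shEZH2#1 than with shEZH2#3. With shEZH2#1, 0 of 6 passed edgeR's test or DESeq2, and 1, PGAM1, had an unadjusted p below 0.05. With the offset, 3 of 6 were called lower with shEZH2#1, namely GAPDH, PGAM1 (-0.41, adjusted p = 0.012) and ENO1 (-0.30, adjusted p = 0.0189). GAPDH, which oxidises glyceraldehyde 3-phosphate, had 5592, 5599.7 and 6098 CPM with shEZH2#1, 10241, 8748 and 8582 CPM with shEZH2#3 and 6268, 5256 and 6554 CPM with shluc. The shEZH2#3 libraries exceeded all others. It rose with shEZH2#3 by 0.61 ± 0.16 (adjusted p = 0.00482), and the hairpins differed by -0.67 ± 0.16 (adjusted p = 0.00409). With the offset the rise came to 0.09 (adjusted p = 0.548), shEZH2#1 was lower than shluc by -0.37 (adjusted p = 0.0144), and the hairpin difference remained at -0.46.

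PGK1 (ENSG00000102144, chrX:77910739-78129296), the first ATP-yielding enzyme, had 2228, 1892 and 1954 CPM with shEZH2#1, 2640.4, 2476 and 3830.0 CPM with shEZH2#3 and 2515, 2141 and 2798 CPM with shluc. Replicate 3 of shEZH2#3 stood well above its fellows. PGK1 passed no test against shluc without the offset, and it was lower in shEZH2#1 than in shEZH2#3 (-0.56 ± 0.18, adjusted p = 0.0279). Without shEZH2#3 replicate 3 that adjusted p was 0.214, and the call was also lost without shEZH2#1 replicate 2 or 3. PGK1 has a low GC content of 43.3%, and with the offset its fold with shEZH2#3 was 0.75 (adjusted p = 0.0065) and the hairpins differed by -0.77 (adjusted p = 0.00429).

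PGAM1, which moves the phosphate of phosphoglycerate, had 703, 650.5 and 711 CPM with shEZH2#1, 809.9, 921 and 1096 CPM with shEZH2#3 and 979, 839 and 895 CPM with shluc. The hairpins differed by -0.45 ± 0.16 (adjusted p = 0.038), a call lost in 5 of 9 fits without 1 library, namely each shEZH2#1 replicate and shEZH2#3 replicates 2 and 3. The offset gave -0.32 (adjusted p = 0.0282). Without shEZH2#3 replicate 3, or scaled by library totals or upper quartile, its small fold of 0.06 ± 0.15 with shEZH2#3 was negative.

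Enolase makes phosphoenolpyruvate. ENO1, the ubiquitous form, had 4661, 5224 and 5270.3 CPM with shEZH2#1, 6388, 7272 and 6521 CPM with shEZH2#3 and 5446, 4641 and 5348 CPM with shluc. It passed narrowly with shEZH2#3 (0.39 ± 0.15, adjusted p = 0.0465), and the call held in 1 of 9 fits without 1 library and turned to -0.14 with the offset and -0.06 with library totals. ENO2, the form named for neurons, rose with shEZH2#3, at 56.9, 64.7 and 70.1 CPM in shEZH2#1, 111, 95.2 and 81.6 CPM in shEZH2#3 and 47.6, 49.6 and 58.0 CPM in shluc. The fold was 0.89 ± 0.15 (adjusted p = 0.000226), or 0.60 with the offset (adjusted p = 0.00502). The hairpins differed by -0.59 ± 0.15 (adjusted p = 0.00907), which missed the threshold when the offset was used (adjusted p = 0.0637) or when shEZH2#1 replicate 1 was left out (adjusted p = 0.0634). ENO2 overlaps LRRC23 on the same strand, whose count came to 9.44% of that of ENO2.

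PKM (ENSG00000067225, chr15:72199029-72231822), pyruvate kinase, had 4446, 5117 and 4999 CPM with shEZH2#1, 7330.0, 7721 and 7363 CPM with shEZH2#3 and 4525, 3739 and 4496 CPM with shluc. Every shEZH2#3 library exceeded the other 6, and shEZH2#1 and shluc overlapped. PKM rose with shEZH2#3 by 0.81 ± 0.15 (adjusted p = 0.000454) and differed between hairpins by -0.62 ± 0.15 (adjusted p = 0.00588). Both calls held with any 1 library left out and with the offset, at 0.32 and -0.36.

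Across SLC2A1 and the 15 enzymes from hexokinase to pyruvate kinase, without the PFKFB regulators, 1 rose and 3 fell with shEZH2#1, 12 of 16 were called with shEZH2#3, all higher, and 13 were lower in shEZH2#1 than in shEZH2#3. The median log2 fold changes were -0.05 with shEZH2#1, 0.65 with shEZH2#3 and -0.60 between hairpins, and all 16 were below 0 between hairpins. With the offset 6 were called lower with shEZH2#1, 9 higher with shEZH2#3 and 11 lower between hairpins, with no call the other way, and the medians were -0.22, 0.30 and -0.41. All 16 were again below 0 between hairpins. They were so too under RLE, upper quartile and library-total scaling. With library totals 6 rose and 2 fell with shEZH2#3, where 1129 rose and 5596 fell of all 13252 tested genes. Without shluc replicate 2 and shEZH2#3 replicate 1, left out together after seeing the data, 4 fell with shEZH2#1, 13 rose with shEZH2#3, and 15 were lower in shEZH2#1 than in shEZH2#3. As a share of all counts, the 16 genes took 3.04 ± 0.08% in shEZH2#1, 3.93 ± 0.17% in shEZH2#3 and 3.43 ± 0.11% in shluc (SD, n = 3 each). That total includes the pair of abundant genes with no symbol. The pair took 15.8 to 22.6%, 5.97 to 11.6% and 6.96 to 9.28% in the same order. A share without the pair was not computed.

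**Figure D3:**
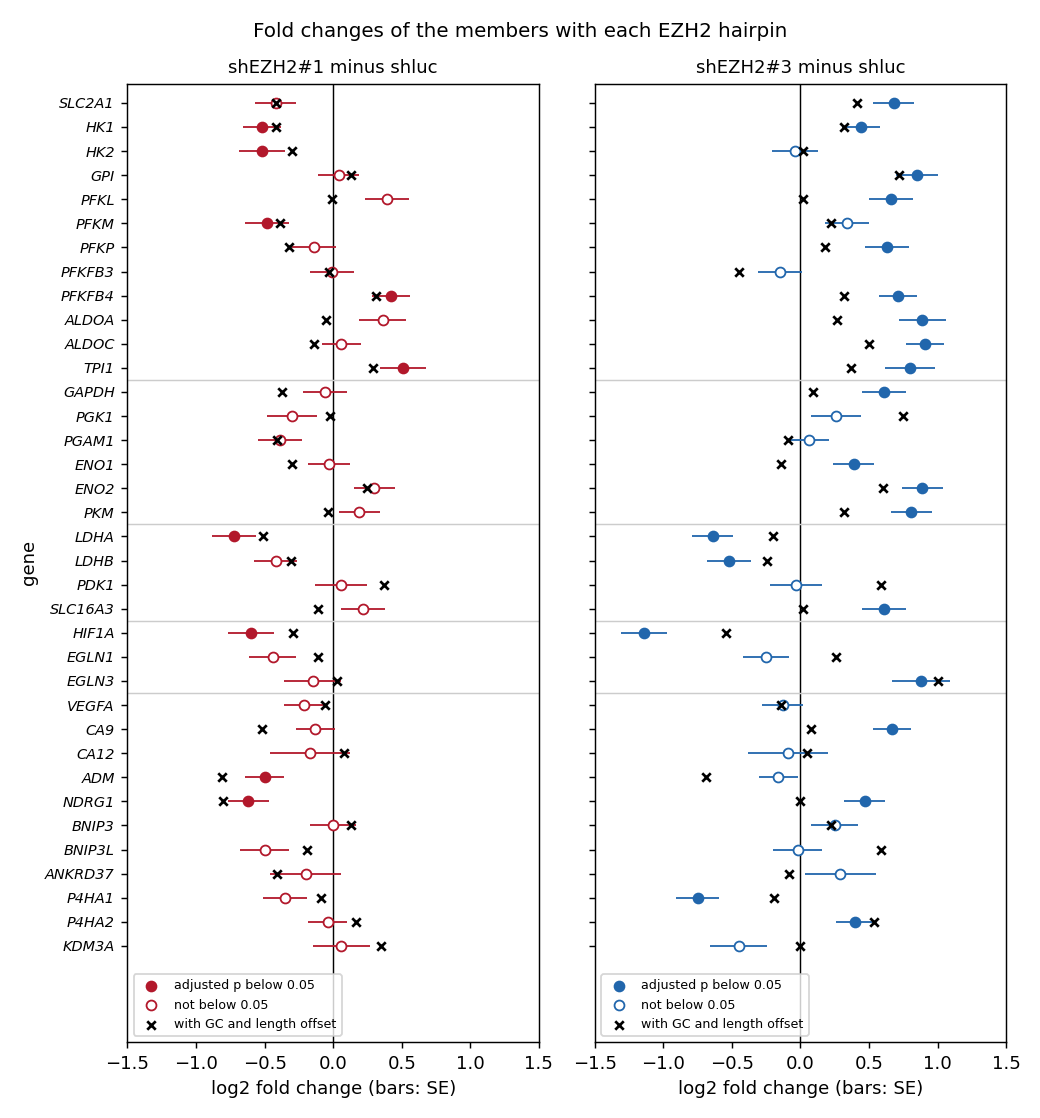
Log2 fold change against shluc (horizontal axis, with bars of 1 SE) of each member (down the page) for shEZH2#1 on the left and shEZH2#3 on the right, filled where the adjusted p was below 0.05, with crosses for the fit with the GC and length offset. Filled points lie right of 0 for 2 members with shEZH2#1 and for 18 with shEZH2#3, and the crosses of ENO1, PFKL, GAPDH and NDRG1 with shEZH2#3 lie near or below 0.1.

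At the pyruvate and lactate step LDHA was lower with both hairpins. LDHA (ENSG00000134333, chr11:18394388-18408425), the lactate dehydrogenase subunit that favours lactate production, had 917, 814 and 769 CPM with shEZH2#1, 804, 857 and 983 CPM with shEZH2#3 and 1216, 1483 and 1411 CPM with shluc. All 6 hairpin libraries lay below all 3 controls. It fell by 0.72 ± 0.16 on the log2 scale with shEZH2#1 (adjusted p = 0.00364) and by 0.64 ± 0.15 with shEZH2#3 (adjusted p = 0.00314), and both calls held with any 1 library left out. The hairpins differed by -0.08 ± 0.15 (adjusted p = 0.743). With the offset the shEZH2#1 call held (-0.51, adjusted p = 0.0013), that with shEZH2#3 was lost (-0.20, adjusted p = 0.106), and the hairpins differed by -0.31 (adjusted p = 0.0142).

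LDHB, the subunit that favours pyruvate, had 58.1, 58.0 and 54.1 CPM with shEZH2#1, 55.8, 56.4 and 46.7 CPM with shEZH2#3 and 61.0, 78.1 and 88.6 CPM with shluc. It fell with shEZH2#3 (-0.52 ± 0.16, adjusted p = 0.0118), and the call was lost with the offset (adjusted p = 0.159) and without shluc replicate 3 or shEZH2#3 replicate 3. SLC16A3, the lactate exporter MCT4, averaged 667 ± 56.3 CPM with shEZH2#1, 879 ± 78.4 CPM with shEZH2#3 and 575 ± 94.1 CPM with shluc. It rose with shEZH2#3 by 0.61 ± 0.16 (adjusted p = 0.00515), and the offset brought this to 0.02 (adjusted p = 0.871). The gene overlaps CSNK1D on the opposite strand, whose count was 13.1% of its own. PDK1, a kinase that inhibits pyruvate dehydrogenase, passed no test without the offset. It stood at 9.38, 9.84 and 7.86 CPM with shEZH2#1, 7.21, 9.10 and 9.23 CPM with shEZH2#3 and 7.28, 9.13 and 9.63 CPM with shluc.

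HIF1A (ENSG00000100644, chr14:61695513-61748259), the oxygen-regulated subunit of HIF-1, had 17.5, 13.5 and 13.8 CPM with shEZH2#1, 9.27, 10.8 and 10.9 CPM with shEZH2#3 and 20.6, 26.6 and 20.8 CPM with shluc. The 3 groups did not overlap, with shEZH2#3 lowest and shluc highest. It fell by 0.60 ± 0.17 with shEZH2#1 (adjusted p = 0.0177) and by 1.14 ± 0.17 with shEZH2#3 (adjusted p = 7.04e-05), and shEZH2#1 exceeded shEZH2#3 by 0.54 ± 0.17 (adjusted p = 0.0297). HIF1A has the lowest GC content of the members, 36.4%, and only the shEZH2#3 fall remained with the offset (-0.54, adjusted p = 0.00942). The offset gave -0.29 with shEZH2#1 (adjusted p = 0.143) and 0.25 between hairpins (adjusted p = 0.202). The shEZH2#1 call was lost without shluc replicate 2 or shEZH2#1 replicate 2 or 3. The call between hairpins was lost without shEZH2#1 replicate 1 or any shEZH2#3 replicate.

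EGLN3 (ENSG00000129521), an oxygen sensor that is itself induced by hypoxia, had 6.71, 5.07 and 5.37 CPM with shEZH2#1, 8.64, 12.7 and 13.7 CPM with shEZH2#3 and 5.48, 6.14 and 7.43 CPM with shluc. The shEZH2#3 libraries exceeded the other 6. EGLN3 rose with shEZH2#3 by 0.88 ± 0.21 (adjusted p = 0.00243) and differed between hairpins by -1.03 ± 0.21 (adjusted p = 0.00153), and the offset left 1.00 and -0.97. Its annotated span, chr14:33924231-34462774, holds SPTSSA on the same strand with 93.4% as many counts, so its reads are uncertain. EGLN1, the main oxygen sensor, had 16.9, 15.4 and 12.5 CPM with shEZH2#1, 16.1, 15.7 and 19.2 CPM with shEZH2#3 and 18.3, 23.9 and 18.7 CPM with shluc, and passed no test without the offset.

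Further hypoxia targets held both patterns. NDRG1 (ENSG00000104419), a stress-responsive gene linked to differentiation, had 576, 553 and 587 CPM with shEZH2#1, 1128, 1401 and 1132 CPM with shEZH2#3 and 860.1, 985 and 798 CPM with shluc. As with SLC2A1 and HK1, the shEZH2#1 libraries lay below shluc and the shEZH2#3 libraries above. NDRG1 fell by 0.62 ± 0.15 with shEZH2#1 (adjusted p = 0.00838), rose by 0.47 ± 0.15 with shEZH2#3 (adjusted p = 0.0188), and differed between hairpins by -1.09 ± 0.16 (adjusted p = 4.52e-05). The offset left -0.80 with shEZH2#1 and -0.80 between hairpins, and ended the rise with shEZH2#3 (adjusted p = 0.999), which was also lost without shluc replicate 1 or 3 or shEZH2#3 replicate 2. The shEZH2#1 call was lost without shEZH2#1 replicate 2 (adjusted p = 0.0533).

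CA9 (ENSG00000107159, chr9:35673856-35681159), a cell-surface carbonic anhydrase used as a hypoxia marker, had 71.0, 71.7 and 76.1 CPM with shEZH2#1, 119, 134 and 127 CPM with shEZH2#3 and 75.9, 70.4 and 92.3 CPM with shluc. It rose with shEZH2#3 by 0.67 ± 0.14 (adjusted p = 0.00128), and the hairpins differed by -0.80 ± 0.15 (adjusted p = 0.000525). The rise came to 0.08 with the offset (adjusted p = 0.605), where CA9 was lower with shEZH2#1 than with shluc (-0.52, adjusted p = 0.00237) and the hairpin difference stayed at -0.60. ARHGEF39 overlaps it on the opposite strand with 16.4% as many counts. ADM, a vasodilator peptide, had 41.0, 40.7 and 37.3 CPM with shEZH2#1, 46.2, 53.8 and 50.4 CPM with shEZH2#3 and 54.7, 57.9 and 55.4 CPM with shluc. All hairpin libraries lay below the controls. The fall with shEZH2#1 was -0.50 ± 0.14 (adjusted p = 0.0167), or -0.81 with the offset, and was lost without shEZH2#1 replicate 2 or 3. With shEZH2#3 the fold of ADM was -0.16 ± 0.14 and missed the threshold (adjusted p = 0.349), whereas the offset called it lower there too (-0.69, adjusted p = 0.0018).

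P4HA1 and P4HA2 are catalytic subunits of collagen prolyl hydroxylase, and they moved in opposite directions with shEZH2#3. P4HA1 had 30.3, 28.4 and 25.3 CPM with shEZH2#1, 20.4, 21.1 and 21.99 CPM with shEZH2#3 and 29.5, 41.4 and 36.2 CPM with shluc. P4HA2 had 93.6, 101 and 104 CPM with shEZH2#1, 124, 136 and 143 CPM with shEZH2#3 and 107, 95.8 and 104 CPM with shluc. The shEZH2#3 libraries of P4HA1 lay below all others, and those of P4HA2 above all others. P4HA1 fell by 0.75 ± 0.16 (adjusted p = 0.000998), which the offset ended (-0.19, adjusted p = 0.199). P4HA2 rose by 0.40 ± 0.14 (adjusted p = 0.0257) and by 0.54 with the offset, but the rise was lost without shEZH2#3 replicate 2 or 3, and with library totals its fold was -0.06. Between hairpins P4HA2 differed by -0.43 ± 0.14 (adjusted p = 0.0268), or -0.37 with the offset, a call lost without any shEZH2#1 replicate and without shEZH2#3 replicate 2 or 3.

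The other 9 members, PFKFB3, PDK1, EGLN1, VEGFA, CA12, BNIP3, BNIP3L, ANKRD37 and KDM3A, passed no test in the 3 comparisons without the offset. VEGFA, the main angiogenic factor of the response, averaged 28.2 ± 2.06 CPM with shEZH2#1, 29.9 ± 2.21 CPM with shEZH2#3 and 32.7 ± 5.24 CPM with shluc, with ranges that overlapped. BNIP3 and BNIP3L, receptors for mitophagy, averaged 29.7 ± 3.68 and 10.9 ± 1.44 CPM with shEZH2#1, 35.4 ± 6.33 and 15.3 ± 0.850 CPM with shEZH2#3, and 29.8 ± 5.28 and 15.5 ± 3.67 CPM with shluc. KDM3A, a histone demethylase, averaged 9.69 ± 2.88 CPM with shEZH2#1, 6.83 ± 0.660 CPM with shEZH2#3 and 9.32 ± 1.60 CPM with shluc. CA12, a second cell-surface carbonic anhydrase, averaged 3.13 ± 0.420, 3.31 ± 1.14 and 3.52 ± 0.880 CPM in shEZH2#1, shEZH2#3 and shluc. ANKRD37 averaged 4.10 ± 0.760, 5.79 ± 1.14 and 4.76 ± 1.66 CPM in the same order, and UFSP2 overlaps it on the opposite strand with 50.1% as many counts. At these low levels the counts of CA12 and ANKRD37 give SEs of 0.26 to 0.29 on the log2 scale, so only large changes were detectable there. With the offset, the hairpins differed in PFKFB3 (0.42), EGLN1 (-0.37) and BNIP3L (-0.78), and against shluc the fold with shEZH2#3 was -0.45 for PFKFB3, 0.59 for PDK1 and 0.59 for BNIP3L, each with an adjusted p of 0.000599 to 0.0378.

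The fold changes of the members followed base composition as did those of all genes. Their GC content ran from 36.4 to 63.5% with a median of 53.0%, against 50.3% over 12949 tested genes with a value. Ranked by GC content, the fold changes correlated at 0.48 with shEZH2#1, 0.63 with shEZH2#3 and -0.40 between hairpins over the 36 members, and 0.47, 0.69 and -0.41 over all genes. These are descriptions across genes of the same libraries. With the offset they were -0.20, -0.08 and -0.08 over the members. Of the 18 rises with shEZH2#3, 11 were also called with the offset, namely SLC2A1, HK1, GPI, PFKFB4, ALDOA, ALDOC, TPI1, ENO2, PKM, EGLN3 and P4HA2, and of the 17 lower values of shEZH2#1 against shEZH2#3, 15 were. HK2 and ENO2 were the 2 lost there.

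**Figure D4:**
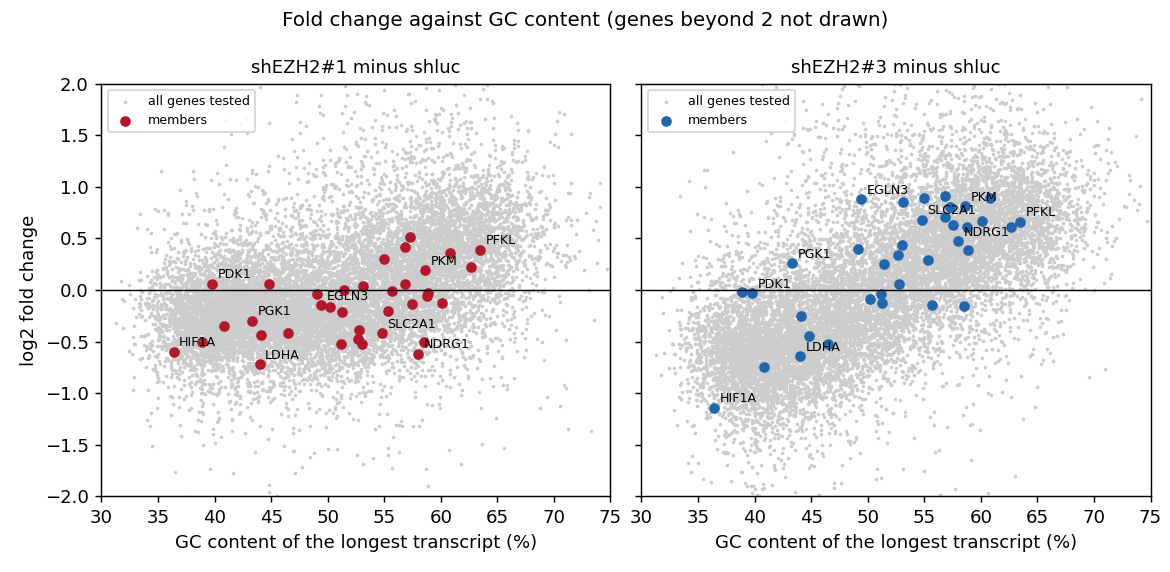
Log2 fold change against shluc (vertical axis) and GC content of the longest transcript in percent (horizontal axis) for all tested genes with a value (grey) and the 36 members (coloured), shEZH2#1 left and shEZH2#3 right; genes beyond 2 on the vertical axis are not drawn. In the shEZH2#3 panel both clouds climb from HIF1A at 36.4% GC to PFKL at 63.5% GC.

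On a per-length scale, in TPM, which divides counts by the length of the longest transcript, glycolytic enzymes led the members in every group. In shluc ALDOA stood at 8919.8 ± 275 TPM, GAPDH at 8485 ± 174, ENO1 at 5810.0 ± 355, PKM at 4138 ± 179 and TPI1 at 3188 ± 403 (SD, n = 3). LDHA, PGK1 and PGAM1 followed at 1520.3 ± 328, 1340.3 ± 27.5 and 1312 ± 133 TPM, closer to each other than the SD of LDHA. PDK1 and CA12 were lowest, at 1.63 ± 0.340 and 1.49 ± 0.570 TPM. In shEZH2#1 and shEZH2#3, ALDOA averaged 10407 ± 724 and 11384 ± 1535 TPM, GAPDH 7337 ± 206 and 8864 ± 143 TPM, and LDHA 825 ± 92.1 and 666 ± 116 TPM. TPM carries no TMM factor, and on it the 16 genes took 3.49 ± 0.14% with shEZH2#1, 3.86 ± 0.29% with shEZH2#3 and 3.52 ± 0.04% with shluc.

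Within enzyme families the same isozyme prevailed in every group on the TPM scale. LDHA made up 90.3 ± 0.56% of LDHA and LDHB in shEZH2#1, 91.3 ± 1.55% in shEZH2#3 and 92.0 ± 0.88% in shluc. HK1 made up 84.9 ± 1.95% of both hexokinases in shEZH2#1, 88.7 ± 0.52% in shEZH2#3 and 84.9 ± 2.49% in shluc. PFKP was 50.8 ± 1.59% of the phosphofructokinases in shEZH2#1, 57.7 ± 0.84% in shEZH2#3 and 57.2 ± 3.92% in shluc, and PFKL was 42.1 ± 1.70%, 33.9 ± 0.04% and 32.8 ± 5.32% in the same order. PFKFB4 was 85.4 ± 0.91% of both PFKFB genes with shEZH2#1, 88.8 ± 0.81% with shEZH2#3 and 81.3 ± 2.63% with shluc. These shares were not tested.

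Neighbouring pathways were read from lists, whose counts stand against the background percentages above. Of 11 tested other genes of glycolysis and lactate transport, 1 was higher and 2 lower in shEZH2#1, and 3 higher and 1 lower in shEZH2#3. With the offset the counts were 0 and 3 in shEZH2#1, and 4 and 1 in shEZH2#3. LDHD, a mitochondrial D-lactate dehydrogenase, rose with shEZH2#1 by 0.75 ± 0.17 and with shEZH2#3 by 1.10 ± 0.16 (adjusted p = 0.00414 and 6.41e-05), and only the second call held with the offset (0.30 and 0.46). SLC2A4, the insulin-responsive glucose transporter, had a fold of 2.53 ± 0.65 with shEZH2#3 (adjusted p = 0.00412), or 2.13 with the offset, at levels of only 1.24 ± 0.490 CPM in shEZH2#3 and 0.210 ± 0.0900 CPM in shluc. SLC16A1, the transporter MCT1, fell with shEZH2#3 by 0.76 ± 0.16 (adjusted p = 0.00128), a call the offset ended (-0.26, adjusted p = 0.0976). The glucose transporter SLC2A3 and the hexokinase-like HKDC1 fell with shEZH2#1 by 0.90 ± 0.19 and 0.99 ± 0.16, and the offset gave -0.63 and -0.92.

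Of 8 pentose phosphate genes, 1 rose and 1 fell with shEZH2#1, and the 3 called with shEZH2#3 rose. With the offset, edgeR called 4 lower with shEZH2#1 and no member of this list with shEZH2#3. PGLS, the lactonase, rose with both, by 0.93 ± 0.17 with shEZH2#1 and 0.78 ± 0.17 with shEZH2#3, and came to 0.26 and -0.03 with the offset.

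Of 10 tested gluconeogenesis and glycogen genes, 0 passed edgeR's test or DESeq2 with shEZH2#1, and 0 had an unadjusted p below 0.05, while 5 rose and 2 fell with shEZH2#3. With the offset, PCK2 (-0.55) and GYS1 (-0.31) were called lower with shEZH2#1 (adjusted p = 0.0014 and 0.0209), and 3 genes were higher and 1 lower with shEZH2#3. Pyruvate carboxylase, PC, rose with shEZH2#3 by 1.09 ± 0.16 (adjusted p = 6.27e-05) and the glycogen synthase GYS1 by 0.78 ± 0.15, while the branching enzyme GBE1 fell by 0.91 ± 0.16 (adjusted p = 0.000292). All 3 calls held with the offset, at 0.52, 0.29 and -0.44. Of 13 genes of pyruvate dehydrogenase and mitochondrial pyruvate entry, the 4 called with shEZH2#1 fell, and 1 was higher and 7 lower in shEZH2#3. The pyruvate dehydrogenase kinases PDK2 and PDK3 went opposite ways with shEZH2#3, PDK2 up by 1.2 ± 0.15 (adjusted p = 1.14e-05) and PDK3 down, at -0.82 ± 0.26 (adjusted p = 0.0157). With the offset 2 genes of this list were called with shEZH2#3, PDK2 (0.67) and PDHX, both higher, and 1 with shEZH2#1, PDK3, which was lower (-0.75).

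Of 16 tested regulators of HIF, 2 were higher and 4 lower in shEZH2#1, and 3 higher and 2 lower in shEZH2#3. ELOB and EGLN2 were called higher with both hairpins. ELOB rose by 0.83 ± 0.26 with shEZH2#1 and 0.97 ± 0.26 with shEZH2#3, and EGLN2 by 0.70 ± 0.17 and 0.57 ± 0.17. With the offset ELOB had 0.36 and 0.25 and EGLN2 0.31 and -0.06, and only EGLN2 with shEZH2#1 was still called. CITED2, which competes with HIF1A for the coactivators CREBBP and EP300, rose with shEZH2#3 by 1.13 ± 0.15 (adjusted p = 2.79e-05), or 1.34 with the offset. CREBBP and EP300 fell with shEZH2#3 by 0.75 ± 0.18 and 0.74 ± 0.19, and the offset gave -1.01 and -0.72. CREBBP was also called lower with shEZH2#1 (-0.57 ± 0.18, adjusted p = 0.0313), or -0.56 with the offset, whereas EP300 was not called there. OS9 fell with shEZH2#1 by 0.91 ± 0.15 (adjusted p = 0.000548), with -0.95 under the offset, which called 1 of this list higher and 4 lower with shEZH2#1 and 2 higher and 2 lower with shEZH2#3. Of 40 other described HIF targets, 3 were higher and 8 lower in shEZH2#1, and 10 higher and 9 lower in shEZH2#3. With the offset these were 3 and 9 in shEZH2#1 and 11 and 4 in shEZH2#3, and the list's median with shEZH2#3 was 0.18, where it was -0.15 without the offset. HILPDA, a lipid droplet protein, and ITGA5, an integrin chain, rose with shEZH2#3 by 1.2 ± 0.17 and 1.27 ± 0.15 (adjusted p = 4.44e-05 and 1.13e-05), and the offset left 1.16 and 0.79. The largest called falls with shEZH2#3 were NT5E (-0.99 ± 0.28, adjusted p = 0.00859) and RLF (-0.96 ± 0.30, adjusted p = 0.0155). The offset ended both calls (-0.59 and -0.32, adjusted p = 0.0989 and 0.422). ITGA5 was also called higher with shEZH2#1 (0.45 ± 0.15, adjusted p = 0.0468), a call lost with the offset (0.26, adjusted p = 0.0828). ANGPTL4, a secreted lipase inhibitor, rose with both hairpins, by 1.07 ± 0.18 with shEZH2#1 and 1.10 ± 0.18 with shEZH2#3, which the offset brought to 0.59 and 0.43. The collagen cross-linking enzyme LOX, at 0.390 ± 0.180 CPM in shEZH2#1 and 1.31 ± 0.670 CPM in shluc, had the lowest fold of the list with shEZH2#1 (-1.74 ± 0.56, adjusted p = 0.0337), a call the offset ended (-1.38, adjusted p = 0.0948). TFRC, the transferrin receptor, fell with shEZH2#1 by 0.94 ± 0.17 (adjusted p = 0.00085), or -0.61 with the offset. TFRC was also called lower with shEZH2#3 (-0.55 ± 0.16, adjusted p = 0.0113), which the offset ended (0.05, adjusted p = 0.759).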

How the data were processed

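RNA of 9 libraries of KYSE180 cells was sequenced. Per the labels' protocols, polyadenylated RNA was made into dUTP-stranded libraries. The submitters' processing notes name fastp, HISAT2, StringTie and GRCh38 (hg38), with no versions. How counts were made (the program, annotation release, strand setting and treatment of reads with several matches) is not given in the sources used here. What the authors deposited are estimated counts for each Ensembl gene without normalization, and 14.7 to 18.5% of nonzero values in a library carry decimals. Of 57905 identifiers, 51996 took a symbol from a naming table and 342 more from GENCODE 29, whose positions are used; 5567 had none. A small share of each member's reads, at most 0.585% for any member, went to pseudogenes named after it.

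Counts were rounded to whole numbers. The test was that of edgeR 4.0.16 (R 4.3.3), with TMM scaling, filterByExpr on the 3 groups, and 1 quasi-likelihood fit of group means (common dispersion 0.0315). Benjamini-Hochberg adjustment ran over all 13252 genes tested, and a call is an adjusted p below 0.05. Errors of fold changes are approximate SEs, and those of levels are SDs (n = 3). A second fit used a smooth per library on GC content and transcript length (span 0.3) as an offset, from the longest GENCODE 29 transcript, which covered 97.7% of genes tested. TPM was computed with those lengths. The fits were checked on simulated counts.

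The members and lists were chosen with earlier results of these data known. Full statistics are given for members called in at least 1 comparison and for the 4 most abundant. Genes named from a pathway list are among the 2 largest called rises or falls of that list in a hairpin comparison, except PCK2 and PDHX, named after their values were seen. Alternatives were DESeq2 1.42.0, RLE scaling, upper quartile scaling, no filter, the GC and length offset, the replicate number as a block alone and with the offset, only the groups compared, no abundant unnamed genes, added pseudogene counts, and each library left out. After the data were seen, a fit without shluc replicate 2 and shEZH2#3 replicate 1 was added, and another with library totals alone.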

Additional observations from a re-analysis of the deposited data

Results flagged for a closer look

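For 18 members the effect of shEZH2#1 and that of shEZH2#3 differed in the direct test of one hairpin against the other, with an adjusted p below 0.05 by edgeR's quasi-likelihood test. Among all tested genes 25.0% did so. The difference is given as the log2 fold change of shEZH2#1 over shEZH2#3. It was -1.09 for SLC2A1 and for NDRG1, -1.03 for EGLN3 and -0.96 for HK1. It was -0.85 for ALDOC, -0.82 for PFKM, -0.81 for GPI and -0.80 for CA9. PFKP had -0.77, GAPDH -0.67, PKM -0.62 and ENO2 -0.59. PGK1 had -0.56, ALDOA -0.52, HK2 -0.48, PGAM1 -0.45 and P4HA2 -0.43. HIF1A, at 0.54, was the member that was higher with shEZH2#1. Fits with the GC and length offset did not call HK2, ENO2 and HIF1A. In 11 of the 18 the signs against shluc were opposite, but only 2, HK1 and NDRG1, were called in opposite directions. Some of the 11 had a fold near 0 on one side, such as P4HA2 (-0.04) and GAPDH (-0.06) with shEZH2#1 and PGAM1 (0.06) with shEZH2#3. The share of opposite signs over all tested genes was not computed.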

How the results depend on the processing

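EZH2 stayed lower and called under every alternative run, at -1.21 to -0.73 with shEZH2#1 and -1.42 to -0.56 with shEZH2#3, the weakest value of each with the offset, and the counts of members called with shEZH2#3 (22) and between hairpins (18) stayed within 1.5 times. The count with shEZH2#1 (9) did not. It was 5 with the replicate number as a block and 18 with library totals, and leaving out 1 library gave 1 (without shEZH2#1 replicate 2) to 10, with 2 without shEZH2#1 replicate 3 and 4 without shluc replicate 2. Same-numbered libraries correlated at -0.12 to 0.08 in their deviations, and differently numbered ones at -0.16 to 0.16, so no pairing by number was seen. Whether same-numbered libraries shared a culture or batch was not tested. With the replicate block, 20 members were called with shEZH2#3 and 15 between hairpins.

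Over all genes, 2523 were called with shEZH2#1 (3788 with library totals; 1159 to 3063 without 1 library), 5861 with shEZH2#3 (3207 with the offset, 3031 with the replicate block and the offset; 4251 to 5823 without 1 library) and 3311 between hairpins (1956 to 3941 without 1 library). The shEZH2#1 count was 1159, 1344 and 1550 without shEZH2#1 replicate 3, shEZH2#1 replicate 2 and shluc replicate 2, and the lowest count between hairpins came without shEZH2#1 replicate 1. Upper quartile scaling moved the median of all genes to -0.18 with shEZH2#3 and 0.18 between hairpins, and the calls with shEZH2#3 to 2421 higher and 3720 lower, where TMM gave 3237 and 2624. Members then split into 14 higher and 6 lower with shEZH2#3 and 3 higher and 12 lower between hairpins. Library totals split all calls into 772 higher and 3016 lower with shEZH2#1, against 1478 and 1045, and into 1129 and 5596 with shEZH2#3. Between hairpins they gave 1939 and 1214, against 1254 and 2057, and upper quartile 2207 and 1404.

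Of the results under the alternatives for the 27 members called in at least 1 comparison, 1429 kept direction and side, 160 lost the call, 58 gained one and 54 changed sign. Only ENO1, HK1 and P4HA2 changed sign from a called value. The other 9 members are not among these counts. With 1 library left out, their folds ranged across 0 in several comparisons, for example -0.22 to 0.24 for KDM3A and -0.45 to 0.08 for ANKRD37 with shEZH2#1. With shEZH2#1, the offset gave ALDOA -0.05, ALDOC -0.14, EGLN3 0.03, P4HA2 0.17, PFKL -0.01, PKM -0.04 and SLC16A3 -0.11. The replicate block with the offset gave -0.05, -0.14, 0.05, 0.17, -0.01, -0.04 and -0.11 in the same order, and PGK1 0.01. Library totals gave ALDOC -0.21, GPI -0.24, PKM -0.08 and SLC16A3 -0.05. ENO1 was 0.01 with DESeq2 and with RLE and 0.03 without the abundant genes, and P4HA2 0.02 without them. GPI was -0.0014 without the filter, and without shluc replicate 2 and shEZH2#3 replicate 1 GPI was -0.02 and ALDOC -0.01. Single libraries left out gave ALDOC -0.01, ENO1 0.00053 to 0.01 and GPI -0.03 to -0.02.

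With shEZH2#3, the offset gave ENO1 -0.14, HK2 0.02 and PGAM1 -0.09, and with the block -0.14, 0.03 and -0.09. Library totals gave ENO1 -0.06, HK1 -0.03, P4HA2 -0.06, PFKM -0.12, PGAM1 -0.39 and PGK1 -0.18, and upper quartile PGAM1 -0.11. HK2 was 0.22 without both doubted libraries and 0.02 to 0.16 without 1 library, and PGAM1 -0.07. Between hairpins, LDHA was 0.11 with library totals, 0.09 with upper quartile and 0.01 without shEZH2#3 replicate 3, and LDHB -0.07 with the offset, with or without the block. The causes of these changes were not tested. Depth limits CA12 and ANKRD37 most. With 3 libraries a group, losses without 1 library also reflect fewer samples.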
